A study of Mus musculus with 9 samples.

Results

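The subject is a set of 10 mouse apolipoprotein genes, the protein components of lipoprotein particles: Apoe, Apoc1, Apoc2, Apoc3, Apob, Apoa1, Apoa2, Apoa4, Apod and Clu. They were followed in the aorta of mice that lack apolipoprotein E. Every probe set that the platform annotation gives to 1 of these symbols alone was taken, which gave 19 of the 45037 probe sets tested, or 10 of 18193 genes. Each of the 9 arrays measured RNA from 3 pooled aortas, cut from the sinus to the arch. All groups were female APOE-/- mice on a C57BL/6 background, with an age of 8 weeks in the labels, fed 0.2% cholesterol and 10% coconut oil for 30 weeks and killed 10 days after 1 injection into the tail vein. The HDAd-gE3 group received a helper-dependent adenovirus (with no viral genes left) that encodes human apolipoprotein E3. The HDAd-0 group received the empty vector and the PBS group phosphate buffered saline, with 3 arrays in each group. HDAd-gE3 against HDAd-0 addresses the transgene, and HDAd-0 against PBS the vector. The promoter of the transgene and the structure of the deleted Apoe allele are not given in the sources used here.

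Apolipoproteins wrap the lipid core of lipoproteins and decide which receptors and enzymes act on a particle. Apolipoprotein B, made in liver and intestine, is the fixed scaffold of very low and low density lipoproteins. The A group belongs mainly to high density lipoproteins and the C group exchanges between particles and tunes lipolysis. Apolipoprotein E is the ligand that clears remnants through the low density lipoprotein receptor family, and its loss in mice gives atherosclerosis. Macrophages of the arterial wall make apolipoprotein E themselves, whereas Apoa1, Apoa2, Apoc3 and Apob are known as liver and intestinal genes. Apod and Clu are secreted lipid carriers made in many tissues.

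Apoa1, Apoa2 and Apob had group means in the same order in these aortas at their brightest probe sets. Their promoters are therefore shown, from 250 bases before to 50 after the start (RefSeq, GRCm38.p6, plus strand, 5′ to 3′). Apoe shared that order, and its promoter windows are not shown. The Apoa1 window is chr9:46228380-46228679, the Apob window chr12:7977427-7977726, and the Apoa2 window chr1:171224804-171225103, which is the later of its listed starts. Capitals mark motif matches found on either strand.
Apoa1: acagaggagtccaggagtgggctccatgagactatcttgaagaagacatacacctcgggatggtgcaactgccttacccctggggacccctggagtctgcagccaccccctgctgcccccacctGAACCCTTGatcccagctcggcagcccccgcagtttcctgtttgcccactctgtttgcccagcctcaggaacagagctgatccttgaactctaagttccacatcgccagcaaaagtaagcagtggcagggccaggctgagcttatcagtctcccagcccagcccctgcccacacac
Apob: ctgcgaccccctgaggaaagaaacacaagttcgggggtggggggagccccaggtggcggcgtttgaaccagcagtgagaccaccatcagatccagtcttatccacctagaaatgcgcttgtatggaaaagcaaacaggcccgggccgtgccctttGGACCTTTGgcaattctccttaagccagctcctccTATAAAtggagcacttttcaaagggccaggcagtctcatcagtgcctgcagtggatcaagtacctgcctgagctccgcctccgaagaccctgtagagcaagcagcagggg
Apoa2: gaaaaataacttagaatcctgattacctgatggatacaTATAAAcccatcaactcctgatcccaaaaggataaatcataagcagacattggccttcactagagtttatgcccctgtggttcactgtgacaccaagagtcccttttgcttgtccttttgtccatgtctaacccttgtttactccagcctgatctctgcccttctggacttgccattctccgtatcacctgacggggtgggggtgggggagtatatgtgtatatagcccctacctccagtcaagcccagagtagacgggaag
GNACCNTTG, an element of the type bound by HNF4, a liver nuclear receptor, stood at bases 125 to 133 in Apoa1 and at bases 156 to 164 in Apob. It was looked for after these promoters had been read, and 2.4% of 32851 promoters hold it. The letters TATAAA stood at bases 191 to 196 in Apob and 39 to 44 in Apoa2, whose first bases lie at -60 and -212 from the listed starts, and 13.6% of promoters hold them. AGGTCA (a nuclear receptor half-site, in 16.3% of promoters), CAAAGTCCA (an HNF4 element, in 0.475%) and GTTAAT (an HNF1 half-site, in 7.1%) had no match in these 3 windows. The window of the earlier Apoa2 start, chr1:171221314-171221613, holds AGGTCA on the opposite strand, at -238. No motif searched here overlapped another in them. Of the 10 genes, 7 had a promoter in the table, and Apoc1, Apoc3 and Clu did not.

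The deposited log2 signals ran from 1.98 to 14.7, with array medians of 6.67 to 6.77. Smooth muscle markers averaged 12.59 with HDAd-gE3, against 12.44 with HDAd-0 and 12.56 with PBS over 10 genes. HDAd-0 replicate 5 stood apart in the hepatocyte and skeletal muscle markers, and it was singled out after the values had been seen. Its mean of 20 hepatocyte markers was 8.94, against 7.15 to 8.29 on the other 8 arrays, and its mean of 10 skeletal muscle markers was 8.49, against 5.82 to 7.73. HDAd-0 replicate 4 was the next highest array in both lists. Differences of the named apolipoproteins that exceeded their SE are also given without HDAd-0 replicate 5 where that array moved them by over 1.5 times. The 3' minus 5' signal of the Actb and Gapdh controls, a sign of RNA quality, was 0.673 to 0.809 with HDAd-gE3, against 0.760 to 1.08 with HDAd-0 and 0.785 to 0.917 with PBS. The number of arrays limits the precision of every value.

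No probe set of the 10 genes passed the threshold in any comparison (limma over 45037 probe sets, Benjamini-Hochberg adjusted p under 0.05). The count was 0 of 19 between HDAd-gE3 and HDAd-0, where 0.0% of all probe sets passed. It was 0 of 19 between HDAd-gE3 and PBS, where 0.00222% passed, and 0 of 19 between HDAd-0 and PBS, where 0.00888% passed. At an unadjusted p under 0.05 the counts were 5 of 19 against HDAd-0, all lower with HDAd-gE3 (26.3%, beside 12.8% of all probe sets), and 2 of 19 between HDAd-gE3 and PBS, both Apod and lower (10.5%, beside 11.0%). Between HDAd-0 and PBS they were 4 of 19, all higher (21.1%, beside 12.3%). The 3 comparisons share arrays, so their counts are not independent of each other.

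The arrays of the groups did not overlap for 3 of 19 probe sets between HDAd-gE3 and HDAd-0, or 15.8%, near the 15.9% of all probe sets. Between HDAd-gE3 and PBS this held for 6 of 19 (31.6%, beside 20.8% of all), with 2 higher and 4 lower. Between HDAd-0 and PBS it held for 10 of 19 (52.6%, beside 16.9% of all), with 9 higher and 1 lower, and these fell on 7 genes. The 4 Apoa1 probe sets count among those 10 and read the same transcript, so they are not separate observations. Over the 19 probe sets, the mean was lower with HDAd-gE3 than with HDAd-0 for 16 and higher for 3, all of Clu. Taking each gene at its brightest probe set, the mean was lower with HDAd-gE3 than with HDAd-0 for 10 of 10 genes, with a median log2 difference of -0.36, beside -0.04 over all genes. Against PBS, HDAd-gE3 had a higher mean for 5 genes and a lower one for 5, with a median of 0.02 beside -0.02. HDAd-0 had a higher mean than PBS for 8 genes and a lower one for 2, with a median of 0.34 beside 0.02. Without HDAd-0 replicate 5, HDAd-gE3 had a lower mean than HDAd-0 for 9 genes and a higher one for Apoc1 (median -0.28 beside -0.05), and HDAd-0 against PBS again gave 8 higher and 2 lower (median 0.28 beside 0.03).

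**Figure D1:**
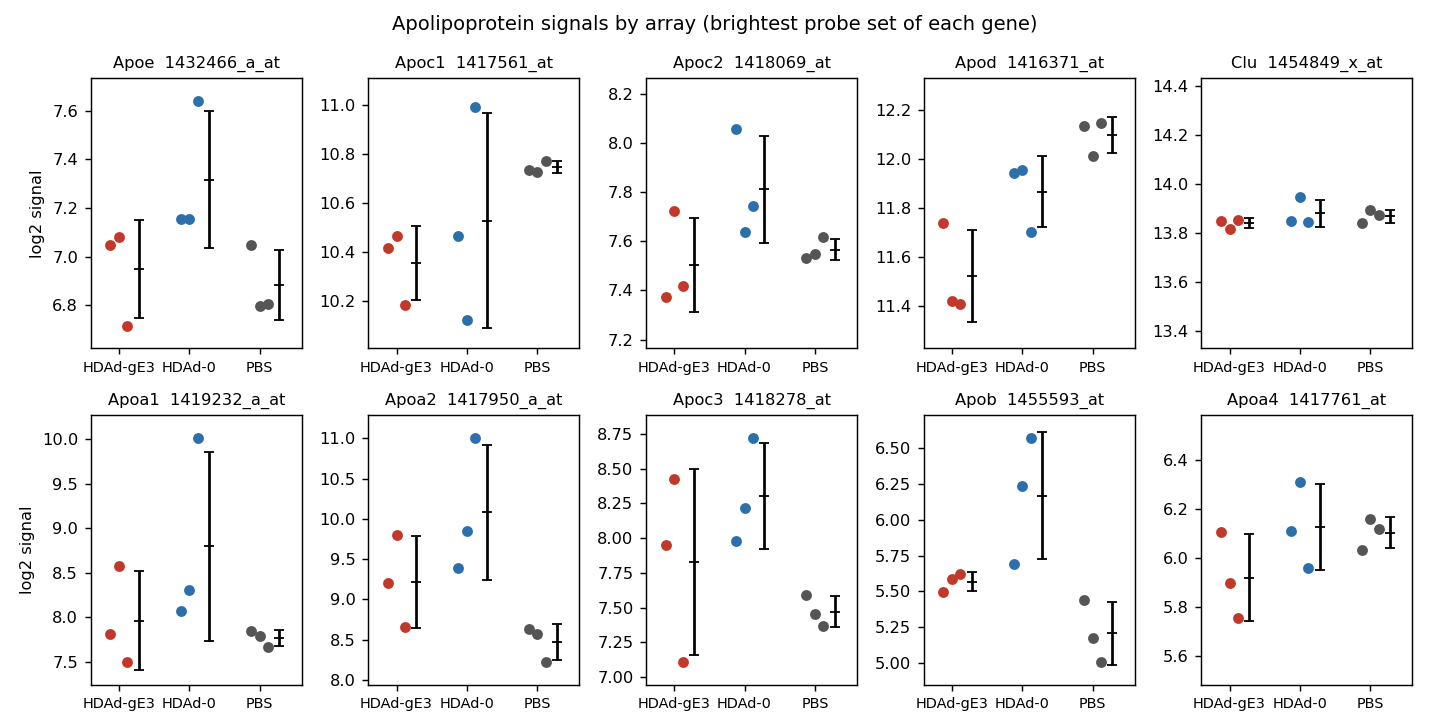
Log2 signal of the brightest probe set of each apolipoprotein gene on the 9 arrays, by group; points are arrays and the bars give the mean and SD of 3 arrays. Each panel has its own vertical axis. HDAd-0 replicate 5 is the highest point for Apoa1 at 10.02 and for Apoa2 at 11.01, and the 3 HDAd-gE3 arrays lie below those of PBS for Apod.

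Among the components of high density lipoprotein, Apoa2, which encodes its second most abundant protein, had the largest difference of the 10 genes at their brightest probe sets. It read 9.20, 9.80 and 8.66 on the HDAd-gE3 arrays, 9.38, 9.85 and 11.01 on the HDAd-0 arrays and 8.63, 8.57 and 8.22 on the PBS arrays (log2). The HDAd-0 arrays all lay above the PBS arrays, and so did the HDAd-gE3 arrays, while the vector groups overlapped. HDAd-gE3 differed from HDAd-0 by -0.86 ± 0.41 (SE, n = 3 each; limma, adjusted p = 0.415) and from PBS by 0.75 ± 0.41 (adjusted p = 0.548). HDAd-0 differed from PBS by 1.61 ± 0.41, a 3.05-fold higher mean signal (limma, adjusted p = 0.215). The group means were 9.22 ± 0.57 with HDAd-gE3, against 10.08 ± 0.84 with HDAd-0 and 8.47 ± 0.22 with PBS (SD, n = 3), so the PBS arrays were the closest together. Without HDAd-0 replicate 5 the difference between HDAd-0 and PBS was 1.15 and that between HDAd-gE3 and HDAd-0 was -0.40. Leaving out HDAd-gE3 replicate 3 moved the difference between HDAd-gE3 and PBS to 0.46.

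Apoa1 encodes the main protein of high density lipoprotein, which takes up cholesterol from cells through ABCA1 and activates the enzyme LCAT. Its brightest probe set read 7.81, 8.57 and 7.49 with HDAd-gE3, 8.07, 8.31 and 10.02 with HDAd-0 and 7.84, 7.78 and 7.67 with PBS. HDAd-gE3 lay on both sides of PBS, and HDAd-0 replicate 5 exceeded every other array by over 1 log2 unit. HDAd-gE3 differed from HDAd-0 by -0.84 ± 0.48 and from PBS by 0.19 ± 0.48, and HDAd-0 from PBS by 1.04 ± 0.48, a 2.05-fold higher mean (limma, adjusted p = 0.479, 0.918 and 0.425). The 4 Apoa1 probe sets gave -0.84 to -0.74, 0.19 to 0.27 and 0.97 to 1.08 in these comparisons, and on each of them the HDAd-0 arrays lay above the PBS arrays. Leaving out HDAd-0 replicate 5 moved the difference between HDAd-0 and PBS to 0.43 and that between HDAd-gE3 and HDAd-0 to -0.23. Over the 4 probe sets these ran from 0.31 to 0.43 and from -0.23 to -0.08. The difference between HDAd-gE3 and PBS turned to -0.11 without HDAd-gE3 replicate 3.

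Apoa4, an intestinal apolipoprotein of chylomicrons and high density lipoprotein, was dim and nearly flat. Its brighter probe set read 6.11, 5.90 and 5.76 with HDAd-gE3, 6.11, 6.31 and 5.96 with HDAd-0 and 6.03, 6.16 and 6.12 with PBS, with all groups overlapping. HDAd-gE3 differed by -0.21 ± 0.11 from HDAd-0 and by -0.18 ± 0.11 from PBS, and HDAd-0 by 0.02 ± 0.11 from PBS. The first 2 of these were -0.13 and -0.10 without HDAd-gE3 replicate 4, and the first was -0.12 without HDAd-0 replicate 4. The second probe set gave -0.22, 0.00 and 0.22, of which the first and the last were -0.11 and 0.11 without HDAd-0 replicate 5. The 6 measured markers of intestinal epithelium, the other main source of these proteins, averaged 4.01 with HDAd-gE3, against 4.29 with HDAd-0 and 4.03 with PBS. Their mean was higher with HDAd-0 than with PBS for 6 of 6, with a median of 0.16. Single Bacillus control probe sets, of which there are 27, read 2.46 to 5.06 on these arrays. The mean of the intestinal markers, at 3.93 to 4.3 on all arrays, lay in that range.

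Apob, the scaffold of very low and low density lipoproteins, read 5.49, 5.58 and 5.62 with HDAd-gE3, 5.69, 6.23 and 6.57 with HDAd-0 and 5.44, 5.18 and 5.01 with PBS at its brighter probe set. No 2 groups overlapped: HDAd-0 was the highest, HDAd-gE3 lay between, and PBS was the lowest. PBS replicate 4, at 5.01, lay in the range of the Bacillus controls (2.46 to 5.06), and PBS replicate 3, at 5.18, just above it. HDAd-gE3 differed by -0.60 ± 0.20 from HDAd-0 and by 0.36 ± 0.20 from PBS (limma, adjusted p = 0.309 and 0.559). HDAd-0 had a 1.94-fold higher mean than PBS, a difference of 0.96 ± 0.20 (limma, adjusted p = 0.174, the smallest of the 10 genes in that comparison). Without HDAd-0 replicate 5 these differences were -0.40 for HDAd-gE3 against HDAd-0 and 0.76 for HDAd-0 against PBS. The second Apob probe set, at 3.64 to 3.98 on all arrays, lay in the range of the Bacillus controls and its groups overlapped in each comparison.

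Apoc3, which slows lipolysis of triglyceride-rich particles and their uptake, read 7.95, 8.43 and 7.11 with HDAd-gE3, 7.98, 8.21 and 8.72 with HDAd-0 and 7.59, 7.45 and 7.37 with PBS. The HDAd-0 arrays lay above the PBS arrays, and HDAd-gE3 spanned from below PBS to above 2 HDAd-0 arrays. HDAd-0 differed from PBS by 0.83 ± 0.31, a 1.78-fold higher mean (limma, adjusted p = 0.341), and by 0.63 without HDAd-0 replicate 5. HDAd-gE3 differed by -0.48 ± 0.31 from HDAd-0 and by 0.36 ± 0.31 from PBS (adjusted p = 0.532 and 0.713), and single arrays moved both. The difference from HDAd-0 was -0.27 without HDAd-0 replicate 5, -0.78 without HDAd-gE3 replicate 3 and -0.11 when HDAd-gE3 replicate 4 was dropped. That from PBS was 0.06 without HDAd-gE3 replicate 3, but 0.72 when HDAd-gE3 replicate 4 was dropped. Apoa1, Apoc3 and Apoa4 lie next to each other on chromosome 9 (Apoa1 at chr9:46228630-46230469, Apoc3 at chr9:46233050-46235636 and Apoa4 at chr9:46240844-46243458, GRCm38.p6). Apoa5, the triglyceride-lowering gene at chr9:46268608-46271921, was looked at as their neighbour after its values had been seen. It differed by -0.63 ± 0.22 between HDAd-gE3 and HDAd-0 and by 0.79 ± 0.22 between HDAd-0 and PBS, with arrays not overlapping in either comparison, and by -0.32 and 0.48 once HDAd-0 replicate 5 was left out.

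At the brightest probe sets of Apoa1, Apoa2, Apoc3 and Apob the order was HDAd-0 above HDAd-gE3 above PBS, as in the hepatocyte markers. This order was not particular to them. Apoe, the dimmer Apoa4 probe set, the endothelial markers and the list of other apolipoproteins and lipoprotein-bound proteins had it too. The mean of 20 of 21 listed hepatocyte genes was 7.66, 8.05 and 7.49 with HDAd-gE3, 7.95, 8.29 and 8.94 with HDAd-0 and 7.68, 7.42 and 7.15 with PBS. Of the 20, 18 had a lower and 2 a higher mean with HDAd-gE3 than with HDAd-0 (median -0.67), and 14 a higher and 6 a lower mean with HDAd-gE3 than with PBS (median 0.28). With HDAd-0 against PBS 19 were higher and 1 lower (median 1.22). With HDAd-0 replicate 5 left out the medians were -0.36 for HDAd-gE3 against HDAd-0 and 0.78 for HDAd-0 against PBS. None passed the adjusted threshold. An unadjusted p under 0.05 was found for 8 (all lower, beside 12.8% of all probe sets), for 3 higher and 1 lower (beside 11.0%) and for 14 (all higher, beside 12.3%) in the same order of comparisons. Alb, the major plasma protein of hepatocytes, read 9.74, 10.47 and 9.21 with HDAd-gE3, 9.56, 10.66 and 11.67 with HDAd-0 and 8.76, 8.21 and 8.27 with PBS. HDAd-0 differed from PBS in Alb by 2.22 ± 0.50 (limma, adjusted p = 0.185). Cyp2e1, with the smallest p of the list in both HDAd-gE3 comparisons, had another order and was among the 6 lower than with PBS. Its HDAd-gE3 arrays lay below those of both other groups, by -0.41 ± 0.10 from HDAd-0 and -0.31 ± 0.10 from PBS (limma, adjusted p = 0.221 and 0.334). Markers of other tissues moved with HDAd-0 as well. Skeletal muscle markers had a higher mean with HDAd-0 than with PBS for 8 of 10 (median 1.08). Cardiac muscle markers had a lower one for 8 of 8 (median -0.79). The arrays did not overlap for these 8, beside 16.9% of all probe sets. HDAd-gE3 against HDAd-0 gave medians of -1.24 for skeletal and 0.50 for cardiac muscle, and against PBS -0.20 and -0.17. The part of RNA from hepatocytes or these tissues in the apolipoprotein values was not tested. In pooled tissue, fewer cells of a type and less RNA per cell cannot be told apart.

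**Figure D2:**
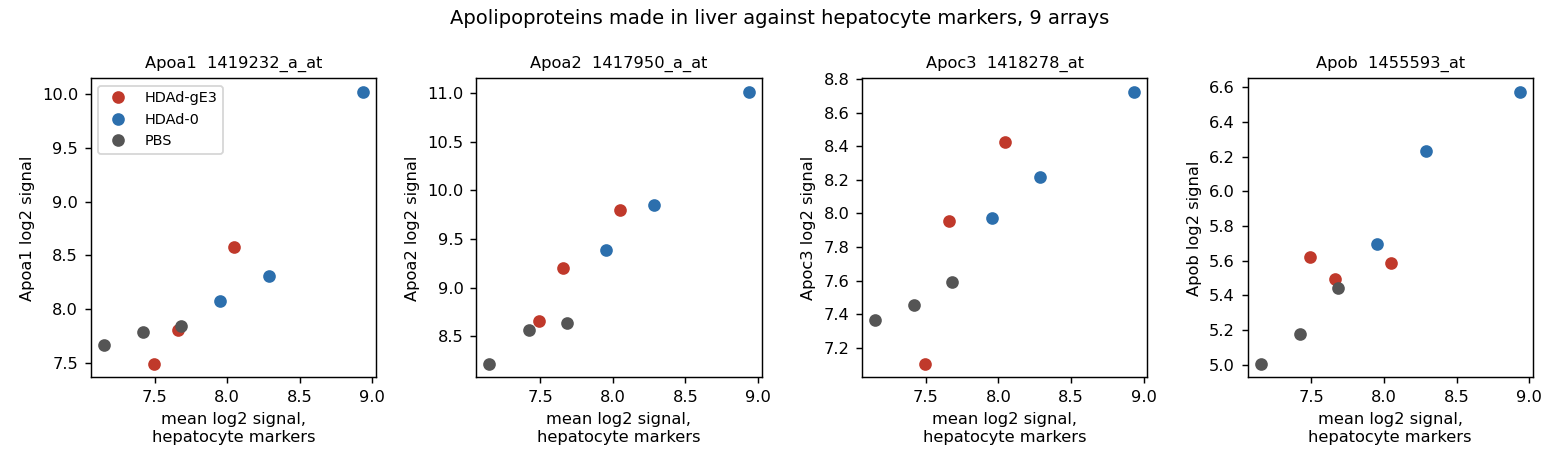
Log2 signal of Apoa1, Apoa2, Apoc3 and Apob (vertical axes) against the mean log2 signal of 20 hepatocyte markers (horizontal axis) on each of the 9 arrays, coloured by group. HDAd-0 replicate 5, at a marker mean of 8.94, is the highest array in all 4 panels, and PBS replicate 4, at 7.15, is the lowest for Apoa2 and Apob.

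Each of these 4 genes spanned over 1 log2 unit across the arrays, so the probe sets with the most similar profile were listed by Pearson's r over the 9 arrays, which share the difference between groups and HDAd-0 replicate 5. For Apoa2 they were 4 probe sets of Ttr, which encodes the thyroxine carrier transthyretin, at 0.980 to 0.994, and F2, prothrombin, at 0.975. For Apoa1 they were C4bp, a complement inhibitor, at 0.974, Cyp1a2, a drug-metabolising cytochrome of liver, at 0.955, Dusp6 at 0.953, Ttr at 0.952 and Ugt2b5, a glucuronosyltransferase, at 0.951. For Apoc3 they were Azin2 at 0.966, 3 probe sets of Ttr at 0.943 to 0.957 and C4bp at 0.940. Apob differed from these in its list, with Slc29a3 at 0.985, Fgb, the fibrinogen beta chain, and Limk1 at 0.975 each, Enoph1 at 0.972 and Hrg, the plasma histidine-rich glycoprotein, at 0.971. Ttr, Fgb and F2 are also in the hepatocyte marker list.

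Apod encodes a lipocalin that binds arachidonic acid and progesterone and, unlike most apolipoproteins, is made in fibroblasts, glia and other peripheral cells. It had the lowest mean with HDAd-gE3 and the highest with PBS on both probe sets. The brighter one read 11.74, 11.42 and 11.41 with HDAd-gE3, 11.94, 11.96 and 11.70 with HDAd-0 and 12.14, 12.01 and 12.15 with PBS. The PBS arrays lay above all arrays of both vector groups, and HDAd-gE3 overlapped HDAd-0 through its replicate 2. HDAd-gE3 differed from PBS by -0.58 ± 0.11, a 1.49-fold lower mean (limma, adjusted p = 0.149), and from HDAd-0 by -0.34 ± 0.11 (adjusted p = 0.294). HDAd-0 differed from PBS by -0.23 ± 0.11 (limma, adjusted p = 0.437), or -0.15 without HDAd-0 replicate 5.

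The dimmer Apod probe set read 7.32, 6.91 and 6.84 with HDAd-gE3, 8.21, 7.68 and 7.33 with HDAd-0 and 8.14, 8.01 and 8.49 with PBS. Here the HDAd-gE3 arrays lay below all other arrays, though replicate 2 of HDAd-gE3 was almost level with replicate 5 of HDAd-0. The difference of HDAd-gE3 from PBS was -1.19 ± 0.23, a 2.29-fold lower mean (limma, adjusted p = 0.149), and that from HDAd-0 was -0.72 ± 0.23 (adjusted p = 0.294). HDAd-0 differed from PBS by -0.47 ± 0.23 (limma, adjusted p = 0.447), with arrays that overlapped, and by -0.27 without HDAd-0 replicate 5 or -0.71 without HDAd-0 replicate 3. When arrays were weighted by their own spread about the fitted group means, both probe sets passed against PBS, with differences of -0.60 and -1.20 (limma with array weights, adjusted p = 0.0371 and 0.0428). In that setting 279 of 45037 probe sets passed. Over the alternatives that keep the probe sets apart, the brighter one ran from -0.68 to -0.51 and the dimmer from -1.38 to -1.05 against PBS. No alternative other than the array weights gave a call. Fibroblast markers (10 of 10 measured) had median differences of 0.003 for HDAd-gE3 against HDAd-0, 0.04 for HDAd-gE3 against PBS, and 0.06 for the empty vector against PBS. For Schwann cell markers, of which 7 of 10 were measured, the medians were -0.15, -0.06 and 0.03 in that order.

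**Figure D3:**
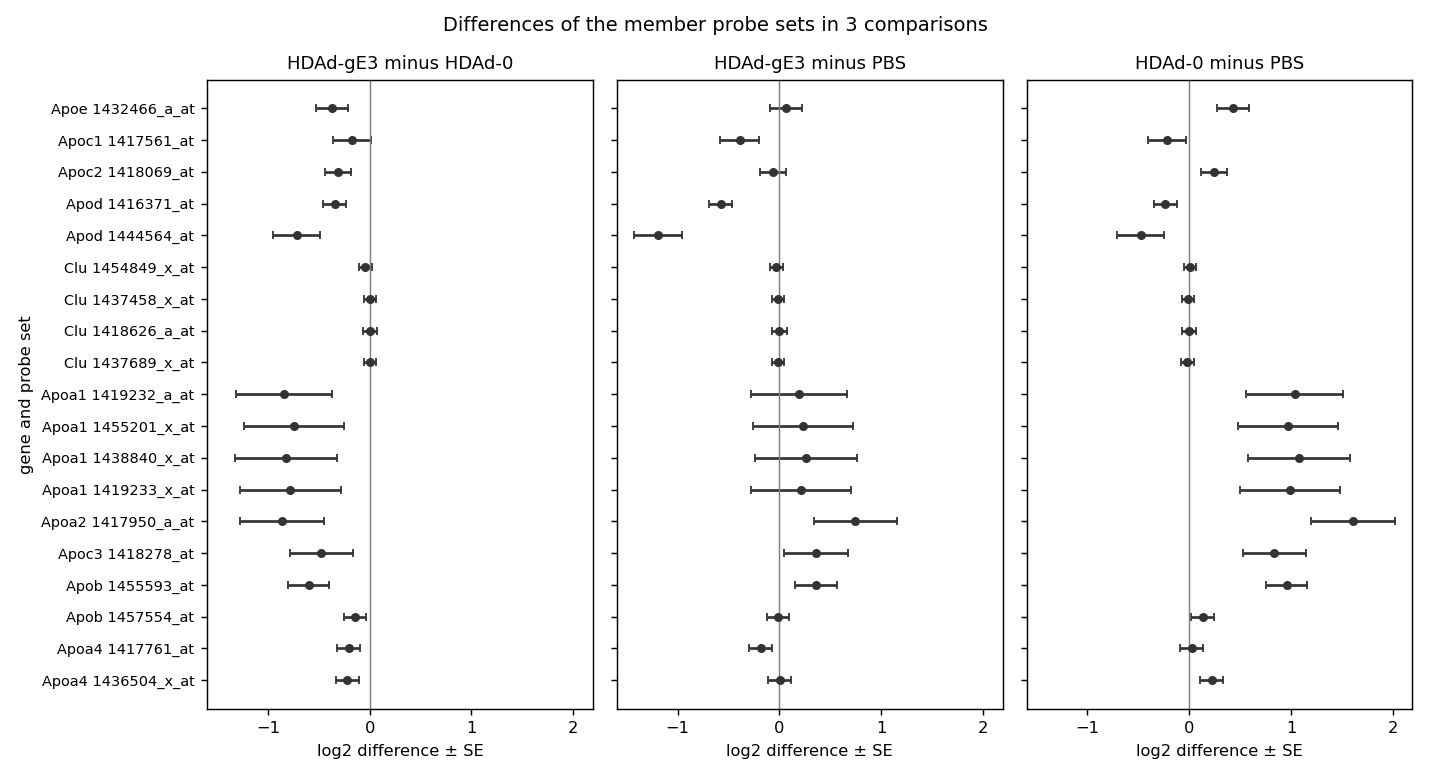
Log2 difference with its SE (limma, n = 3 arrays per group) for the 19 probe sets in the 3 comparisons; the vertical line is no difference. The 2 Apod probe sets lie at -0.58 and -1.19 for HDAd-gE3 minus PBS, and Apoa2 lies at 1.61 for HDAd-0 minus PBS, while the 4 Clu probe sets lie on the line in each panel.

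Apoe lies in a cluster with Apoc1, Apoc4 and Apoc2 on chromosome 7 (Apoc2 at chr7:19671579-19677941, Apoc1 at chr7:19689480-19692659 and Apoe at chr7:19696244-19701310, GRCm38.p6). The single Apoe probe set is a mouse one, and its place relative to the deleted part of the gene is not given, so it checks neither the knockout nor the human transgene. It read 7.05, 7.08 and 6.72 with HDAd-gE3, 7.15, 7.16 and 7.64 with HDAd-0 and 7.05, 6.79 and 6.80 with PBS. The HDAd-0 arrays lay above those of both other groups, and HDAd-gE3 and PBS overlapped. HDAd-gE3 differed from HDAd-0 by -0.37 ± 0.16 (limma, adjusted p = 0.378), and HDAd-0 from PBS by 0.43 ± 0.16 (adjusted p = 0.329). Without HDAd-0 replicate 5 these were -0.21 and 0.27.

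Apoc1, an inhibitor of lipoprotein uptake and of cholesteryl ester transfer that macrophages also make, did not follow Apoe. It read 10.42, 10.46 and 10.19 with HDAd-gE3, 10.47, 10.12 and 10.99 with HDAd-0 and 10.73, 10.73 and 10.77 with PBS. The 3 PBS arrays were all higher than the 3 HDAd-gE3 arrays, and HDAd-gE3 differed from PBS by -0.39 ± 0.19 (limma, adjusted p = 0.497). HDAd-0 spread on both sides of the other groups, with an SD of 0.44 against 0.02 in PBS. It differed from PBS by -0.22 ± 0.19, and HDAd-gE3 differed from it by -0.17 ± 0.19. The difference between HDAd-0 and PBS was -0.45 without HDAd-0 replicate 5 and -0.01 without HDAd-0 replicate 4.

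Apoc2, the cofactor that activates lipoprotein lipase, read 7.37, 7.72 and 7.42 with HDAd-gE3, 8.06, 7.64 and 7.75 with HDAd-0 and 7.53, 7.55 and 7.62 with PBS. The HDAd-0 arrays lay just above the PBS arrays, and HDAd-gE3 overlapped both groups. HDAd-gE3 differed by -0.31 ± 0.13 from HDAd-0 and by -0.06 ± 0.13 from PBS, and HDAd-0 by 0.25 ± 0.13 from PBS (limma, adjusted p = 0.373, 0.900 and 0.471). Dropping HDAd-0 replicate 3 moved the first to -0.19 and the last to 0.12. Apoc4, its neighbour at chr7:19678084-19681460, read 7.20, 7.11 and 7.02 with HDAd-gE3, 7.60, 7.57 and 7.82 with HDAd-0 and 7.51, 7.25 and 7.68 with PBS. Its HDAd-gE3 arrays lay below those of both other groups, with differences of -0.56 ± 0.12 from HDAd-0 and -0.37 ± 0.12 from PBS (limma, adjusted p = 0.208 and 0.334).

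Macrophages are plaque cells that make apolipoprotein C1 and, where the gene is intact, which it is not in these mice, apolipoprotein E. Their markers averaged 12.33 to 12.36 with HDAd-gE3, against 12.46 to 12.54 with HDAd-0 and 12.43 to 12.46 with PBS over 18 genes. With HDAd-gE3, 18 of 18 had a lower mean than with HDAd-0 (median -0.14) and 17 of 18 a lower mean than with PBS (median -0.10). None passed the adjusted threshold. Apoc1 had the same order of HDAd-gE3 below PBS as these markers, and the part of macrophage RNA in the Apoc1 values was not tested. The Apoe probe set differed between HDAd-gE3 and PBS by 0.07 ± 0.16, or by -0.0003 without HDAd-gE3 replicate 3. Endothelial markers averaged 10.28 with HDAd-gE3, against 10.52 with HDAd-0 and 10.09 with PBS, and 10 of 10 had a higher mean with HDAd-0 than with PBS.

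Clu encodes clusterin, also called apolipoprotein J, a secreted chaperone found on high density lipoprotein and in plaques. Its 4 probe sets read 13.08 to 13.94 on all arrays, near the top of the signal range. The brightest read 13.85, 13.82 and 13.85 with HDAd-gE3, 13.85, 13.94 and 13.85 with HDAd-0 and 13.84, 13.89 and 13.87 with PBS. The differences ran from -0.04 to 0.00 for HDAd-gE3 against HDAd-0, from -0.03 to 0.00 for HDAd-gE3 against PBS, and from -0.02 to 0.01 for the empty vector against PBS, all smaller than their SE of 0.06 to 0.07. On 1 probe set the HDAd-gE3 arrays lay just below the PBS arrays, at a difference of -0.01. How close these probe sets are to saturation was not tested.

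**Figure D4:**
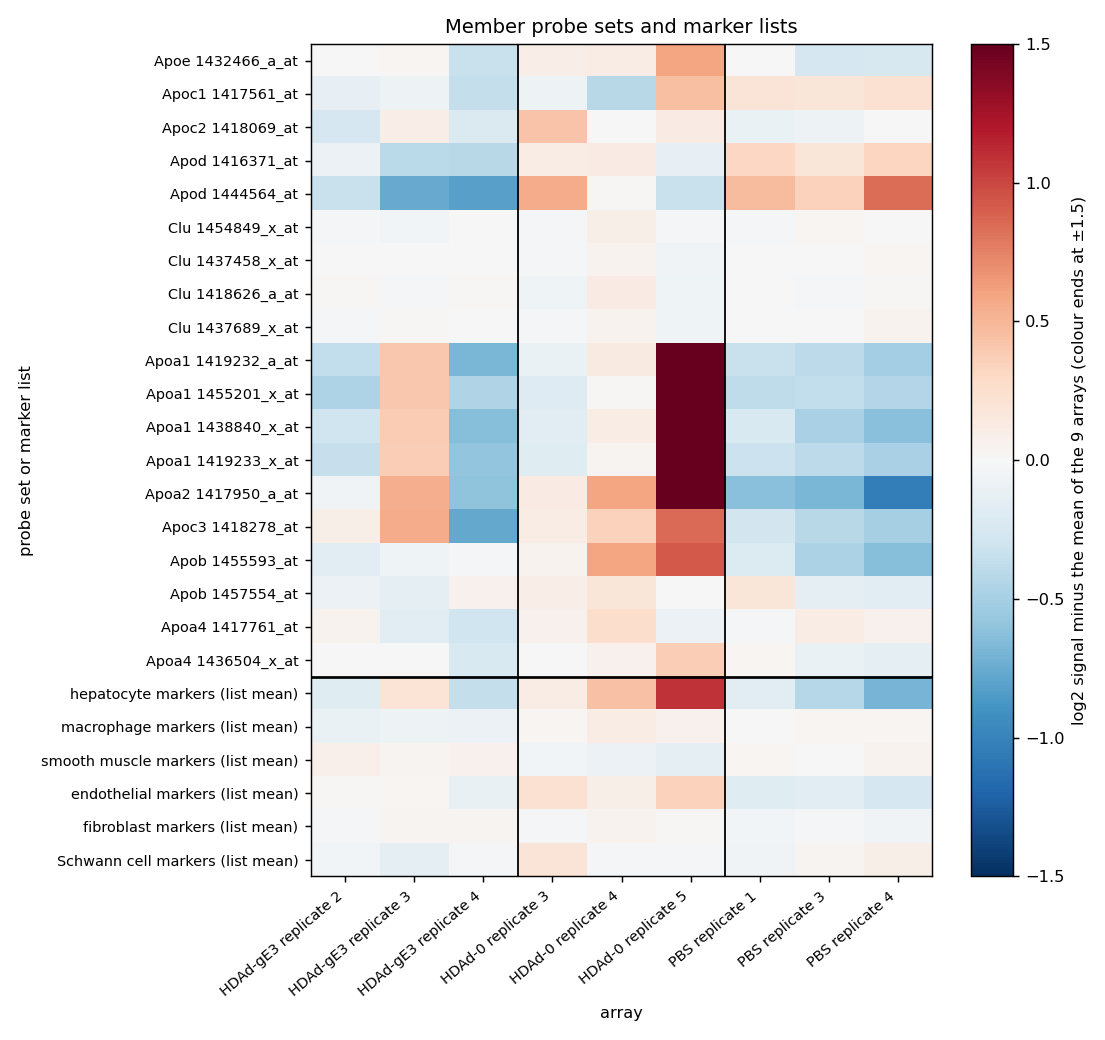
Log2 signal minus the mean of the 9 arrays for the 19 probe sets (rows above the line) and for the mean of 6 marker lists (rows below it), with arrays in columns by group; red is above and blue below the mean, and the colour ends at 1.5. The column of HDAd-0 replicate 5 is the reddest for Apoa1, Apoa2, Apoc3, the brighter Apob probe set and the hepatocyte markers. Apod is red in the PBS columns and bluest in those of HDAd-gE3 replicates 3 and 4. Both Apod probe sets also lie below their means on HDAd-gE3 replicate 2 and HDAd-0 replicate 5.

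The other apolipoproteins and lipoprotein-bound proteins, 16 of 16 measured, averaged 8.39 with HDAd-gE3, against 8.86 with HDAd-0 and 8.27 with PBS. Apoh stands both here and among the hepatocyte markers. With HDAd-gE3, 12 had a lower and 4 a higher mean than with HDAd-0 (median -0.43), and 10 a higher and 6 a lower mean than with PBS (median 0.10). With HDAd-0, 15 had a higher mean than with PBS and 1 a lower one (median 0.77). Leaving out HDAd-0 replicate 5 gave medians of -0.33 and, for the empty vector against PBS, 0.51. None passed. An unadjusted p under 0.05 was found for 11 (all lower, beside 12.8% of all probe sets), for 2 higher and 1 lower (beside 11.0%) and for 8 (all higher, beside 12.3%). Pon1, an antioxidant esterase carried by high density lipoprotein, read 8.80, 8.89 and 8.80 with HDAd-gE3, 9.16, 9.02 and 9.40 with HDAd-0 and 8.48, 8.45 and 7.94 with PBS. No groups overlapped for Pon1, and HDAd-0 differed from PBS by 0.90 ± 0.15 (limma, adjusted p = 0.127). Apom, the carrier of sphingosine 1-phosphate, differed by -0.60 ± 0.15 between HDAd-gE3 and HDAd-0 and by 0.74 ± 0.15 between HDAd-0 and PBS (limma, adjusted p = 0.225 and 0.172). Apold1, an endothelial gene named for its likeness to apolipoprotein L, differed by 1.17 ± 0.28 between HDAd-gE3 and PBS and by 0.84 ± 0.28 between HDAd-0 and PBS, without overlap in either (limma, adjusted p = 0.220 and 0.305). The vector groups overlapped and differed by 0.34 ± 0.28, or by 0.15 without HDAd-0 replicate 5.

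Genes that assemble and remodel lipoproteins, 14 of 16 measured, had median differences near those of all genes, at -0.10 for HDAd-gE3 against HDAd-0, -0.05 for HDAd-gE3 against PBS and 0.04 for the empty vector against PBS, and none passed. Apobec1, the cytidine deaminase that edits Apob mRNA, read 11.19, 11.19 and 11.06 with HDAd-gE3, 11.52, 11.42 and 11.42 with HDAd-0 and 11.30, 11.41 and 11.55 with PBS. Its HDAd-gE3 arrays lay below those of both other groups, by -0.31 ± 0.08 from HDAd-0 and -0.27 ± 0.08 from PBS (limma, adjusted p = 0.240 and 0.315). Lcat ran the other way against HDAd-0, with HDAd-gE3 higher by 0.29 ± 0.12 (limma, adjusted p = 0.378). The HDAd-0 mean of Lcat differed from PBS by -0.34 ± 0.12 (limma, adjusted p = 0.327), and arrays overlapped in both comparisons. Angptl8, which steers the inhibition of lipoprotein lipase, read 7.56, 7.50 and 7.16 with HDAd-gE3, 7.54, 6.70 and 7.58 with HDAd-0 and 9.12, 8.92 and 8.31 with PBS. Both vector groups lay below PBS, by -1.38 ± 0.27 with HDAd-gE3 and -1.51 ± 0.27 with HDAd-0 (limma, adjusted p = 0.152 and 0.145), and they differed from each other by 0.13 ± 0.27.

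Lipoprotein receptors and lipid transporters, 15 of 18 measured, had medians of -0.03, -0.02 and 0.00 in the same comparisons, and none passed. The HDAd-gE3 mean was higher for 7 of them and lower for 8, both against HDAd-0 and against PBS. Among those with a limma p below 0.05 before adjustment, 3 were higher and 4 lower against HDAd-0 (beside 12.8% of all probe sets). Against PBS, 1 was higher and 2 were lower by the same rule (beside 11.0%). Vldlr, a receptor gene, was higher with HDAd-gE3, without overlap with either group. It differed by 0.17 ± 0.07 from HDAd-0 and by 0.17 ± 0.07 from PBS (limma, adjusted p = 0.36 and 0.41). Lsr, a receptor for triglyceride-rich particles, differed by -0.39 ± 0.09 between HDAd-gE3 and HDAd-0 and by 0.54 ± 0.09 between HDAd-0 and PBS (limma, adjusted p = 0.219 and 0.127). Cubn, which encodes cubilin, a receptor for apolipoprotein A1, differed by -0.44 ± 0.11 between HDAd-gE3 and HDAd-0 and by -0.52 ± 0.11 between HDAd-gE3 and PBS (adjusted p = 0.225 and 0.182). Abca1, the transporter that hands cholesterol to apolipoprotein A1, read 12.43, 12.41 and 12.46 with HDAd-gE3, 12.58, 12.71 and 12.62 with HDAd-0 and 12.57, 12.62 and 12.62 with PBS. Its HDAd-gE3 arrays lay below those of both other groups, with differences of -0.21 ± 0.06 from HDAd-0 and -0.17 ± 0.06 from PBS (limma, adjusted p = 0.270 and 0.378).

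LXR, the oxysterol-sensing nuclear receptor, is known to drive Apoe, Apoc1, Apoc2 and Abca1 in macrophages. Of 15 measured of 17 listed LXR pathway genes, 12 had a lower and 3 a higher mean with HDAd-gE3 than with HDAd-0 (median -0.09), and 10 a lower and 5 a higher mean with HDAd-gE3 than with PBS (median -0.07). None passed, and an unadjusted p under 0.05 was found for 4 (beside 12.8% of all probe sets) and 5 (beside 11.0%) of them, all lower. Among these were Nr1h4, which encodes the bile acid receptor FXR and not an LXR, and Abcg8, whose signals lay in the range of the Bacillus controls. The macrophage markers were lower with HDAd-gE3 in the same comparisons, for 18 of 18 and 17 of 18 genes, and their part in the LXR pathway values was not tested. Between HDAd-0 and PBS 8 were higher and 7 lower (median 0.03). Srebf1, the lipogenic transcription factor, differed by -0.38 ± 0.08 between HDAd-gE3 and PBS and by -0.25 ± 0.08 between HDAd-gE3 and HDAd-0, with arrays not overlapping in either (limma, adjusted p = 0.153 and 0.285). Abca1, Abcg1, Pltp and Lpl stand in this list and in one of those above, so the counts overlap.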

How the data were processed

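RNA of pooled aortas was extracted with an RNeasy kit, labelled with biotin after FL-Ovation and hybridised to mouse arrays, as the labels' protocols state. The deposited table holds log2 signals of 45101 probe sets. Per the submitters' processing notes the authors used RMA, in a version not given in the sources used here, and the log2 scale was read from the values. RMA forces all arrays to 1 distribution of signals, which hides a shift common to most genes. Without the 64 control probe sets, 45037 were tested: 34945 with 1 gene in the platform annotation, 932 with several and 9160 with none. Of those with 1 gene, 34754 were matched by gene identifier to RefSeq (GRCm38.p6).

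Linear models over all 9 arrays were fitted in limma 3.58.1 under R 4.3.3 (lmFit, then eBayes), with 6 residual degrees of freedom and Benjamini-Hochberg adjustment at 0.05. The procedure was tested on simulated data. With 3 arrays a group, an exact permutation p is at least 0.1. The pools are described as separate aortas, and p-values measure the spread between pools. Each gene of a list was taken at its brightest probe set.

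The genes and the 14 other lists were chosen with earlier results of these data known. The text names every one of the 10 genes, for lists of the pathway and hepatocytes genes mostly from the 3 with the smallest p in a comparison, while the other marker lists are given by counts and means without naming their top genes, and, for genes spanning at least 1 log2 unit, the 5 probe sets with the most similar profile. Apoa5 was named after its values were seen. Alternatives were 2 scalings, a filter on dim probe sets, 2 choices of probe set, array weights, a replicate block, eBayes with an intensity trend, only the groups compared and leaving out each array. Leaving out HDAd-gE3 replicate 3 with HDAd-0 replicate 5, and adding the difference between 3' and 5' controls to the model, were chosen after seeing the data. Figures were drawn with matplotlib 3.10.9.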

Additional observations from a re-analysis of the deposited data

How the results depend on the processing

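Of the 35 differences of apolipoprotein probe sets that exceeded their SE, repeated 665 times in all, 661 repeats kept the direction and the side of the threshold, and 2 passed the threshold anew, both Apod against PBS with array weights. None of the 35 passed in the main fit, so a repeat of any size counted as kept if its sign held and it did not pass. The brightest Apoa1 probe set ran from -1.89 to -0.16 for HDAd-gE3 against HDAd-0. The direction turned in 2 repeats: the second brightest Apoa1 probe set for HDAd-gE3 against HDAd-0 at 0.0635 with the replicate block, and Apoc3 for HDAd-gE3 against PBS at -0.00617 with the 3' minus 5' covariate. The cause was not tested. The groups share only replicate numbers 3 and 4, and deviations of same-numbered arrays correlated at 0.011 to 0.128, so the numbers were not taken as pairs. With the replicate block 0 of 45037 probe sets passed in each comparison.

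The count of all probe sets past the threshold, which was 0 for HDAd-gE3 against HDAd-0, 1 for HDAd-gE3 against PBS, and 4 for the empty vector against PBS, depended on the setting. In that order of comparisons it was 3, 74 and 35 without dim probe sets, 1, 23 and 12 with 1 probe set per gene, and 1, 24 and 15 with the mean of each gene's probe sets. Array weights gave 279 for HDAd-gE3 against PBS, of which 2 were Apod. An intensity trend gave 86 for HDAd-gE3 against PBS and, with the empty vector, 23. Fitting only the groups compared gave 12 and 0, and the 3' minus 5' covariate gave 0 and 0. With HDAd-gE3 replicate 3 and also HDAd-0 replicate 5 left out it was 2 for HDAd-0 against PBS. Leaving out 1 array at a time gave 0 to 402 for HDAd-gE3 against HDAd-0, 0 to 12 for HDAd-gE3 against PBS, and 0 to 542 for the empty vector against PBS. The 402 and 542 were reached without HDAd-0 replicate 4 and the 12 without HDAd-0 replicate 3. No apolipoprotein probe set passed when any 1 array was left out.

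Without both HDAd-gE3 replicate 3 and HDAd-0 replicate 5, the differences between HDAd-gE3 and HDAd-0 were -0.54 for Apoa1, -0.69 for Apoa2, -0.57 for Apoc3 and -0.41 for Apob. With the covariate they were -1.89, -1.72, -1.03 and -0.87. The covariate itself differed between these groups, at 0.673 to 0.809 with HDAd-gE3 and 0.760 to 1.08 with HDAd-0. Its part and that of the group therefore cannot be fully told apart. For Apod against PBS the values were -0.52 and -1.13 without both arrays, and -0.51 and -1.05 with the covariate. The probe sets at the level of the Bacillus controls carry no usable level.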
